A study of Drosophila melanogaster with 66 samples.

Results

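Transcripts of whole adult Drosophila melanogaster were compared between 3 male and 3 female arrays of the w1118 F1 control, which are 6 of the 66 arrays of the series. The members were chosen by the labels alone: every array labelled F1, control lineage and genotype w1118, split by sex. The study follows lineages descending from founders with genetically ablated insulin-producing cells, and these controls carried none of its constructs or balancers. w1118 is a white-eyed laboratory strain widely used as an unmanipulated background. For each array, RNA was extracted from a pool of 80 to 90 whole flies, the progeny of matings between 150 males and females kept at 25 °C, and 100 ng of total RNA was labelled for an Affymetrix array that reads the 3' ends of transcripts. The labels do not give the age of the flies within the collection period or whether the females had mated. The labels call these arrays the F1 control of both founders and F1 flies, whereas the design text speaks of a founder control and of F1 controls that were not profiled, so the generation of the flies is given here as labelled. Founders, used below as another set of males and females, had the genotype rpr/cyo; dilp3/ser in the w1118 background. The test line F1 flies, which enter the fit and 1 count of signs, were cyo/+; ser/+, cyo/+; dilp3/+, rpr/+; ser/+ or rpr/+; dilp3/+, with 3 arrays per sex for the founders and for each of these. The F3 controls were w1118 flies of a later generation of the control lineage.

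Sex in the fly is set within each cell by the number of X chromosomes. Presence of an active Sex-lethal protein in females directs splicing of transformer, which in turn directs splicing of doublesex and fruitless, so that the sexes differ in transcript forms of these genes as much as in their levels. Males raise transcription of their single X with the MSL complex, which does not form in females because Sex-lethal blocks production of its MSL-2 subunit. In whole adults the gonads are large. The ovary holds nurse cells, follicle cells that secrete the eggshell, and eggs loaded with maternal transcripts, while the fat body makes yolk proteins. In the testis, spermatocytes transcribe many genes used nowhere else, and the accessory glands, ejaculatory duct and ejaculatory bulb make seminal fluid. Fat body, oenocytes (the cells that make cuticular hydrocarbons), gut and nervous system also carry sex-specific programmes.

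The deposited values are log2 GCRMA levels, a background-corrected and normalised scale on which no signal gives about 2.23. All differences are male minus female on this scale, fitted with limma across the 36 founder and F1 arrays with the labelled batch as a factor, and are given with the standard error of the fit. Calls needed an adjusted p (Benjamini-Hochberg, across the full set of 12809 entries) below 0.05. An entry is 1 gene, or 1 probe set where no single gene is assigned. Levels of different genes cannot be set against each other on arrays. Folds are ratios of geometric means over the arrays, not taken from the fitted difference, and where every array of the lower sex lay within 0.1 of the floor they are lower bounds. An entry was tested if it passed a filter on low values in at least 3 of the 36 arrays, so a gene can have passed through 1 sex alone.

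Marker lists of eye, synapse, muscle, gut and reproductive organs had median levels well above the floor on all 6 arrays or, for the reproductive organs, on the arrays of 1 sex. One array stood apart. Female array 2 lay on average 0.497 log2 units from the median of its group, against 0.159 to 0.241 for the other 5 arrays. Its eggshell list had a median level of 8.14, against 10.87 and 12.08 on female arrays 1 and 3, and its mitosis list 7.86 against 9.30 and 9.098. The muscle list had a median of 9.76 there against 9.06 and 8.45, the synapse list 6.65 against 5.28 and 4.33, and the phototransduction list 7.64 against 6.48 and 4.57. These ovary lists were thus lower, and these muscle and head lists higher, on this array than on the other female arrays. Not every body list was higher there: the gut digestive enzyme list had a median of 8.56, against 8.76 and 9.09. Male array 2 had the highest yolk protein levels among males. Values without female array 2 are given below for these eggshell, mitosis, muscle, synapse and phototransduction lists and for some other results.

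Most entries tested differed between the sexes. Of 12809 entries, 6712 were called (52.4%), 2879 higher in males (22.5%) and 3833 higher in females (29.9%). At an unadjusted p under 0.05, 7313 passed. Called differences of at least 2-fold numbered 2591 higher in males (20.2%) and 3110 higher in females (24.3%). Very large differences lay more often on the male side, with 649 entries at a log2 difference of 5 or more (32-fold) higher in males and 157 higher in females. Among the called entries, 124 had all female arrays at the floor (0.968% of entries) and 103 had all male arrays at the floor (0.804%). Of these, 115 and 76 had a gene symbol. The 3 arrays of one sex lay beyond all 3 of the other in 6305 of the called entries, against 58.3% of all entries tested.

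The split between male and female calls depended on scaling. Array medians were 4.10 to 4.16 in males and 3.25 to 3.44 in females, and the median difference over all entries was -0.05. Centring each array on its own median moved that median to -0.86 and gave 1672 entries higher in males and 7539 higher in females. Quantile normalisation gave 2725 and 4059. Differences of male sign that are smaller than about this shift therefore depend on the scale chosen. Centring also shifts values at the floor, so entries at the floor in both sexes gain a difference of female sign. The counts after centring are given with the lists below, those higher in males first unless stated. They were unchanged for the lists of yolk proteins, eggshell, sperm chromatin and tail, and accessory gland. Leaving out female array 2 gave 3232 calls higher in males and 3885 higher in females. The labelled batches were crossed with sex in part. Batch 1 held male array 1 and female arrays 1 and 2, batch 2 held both arrays numbered 3, and batch 3 held male array 2 alone. Of the 5701 entries called at 2-fold, 5699 had the same sign within batch 1 and within batch 2. This count reuses the arrays that gave the calls, apart from male array 2. It is therefore no separate check on the batches.

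**Figure D1:**
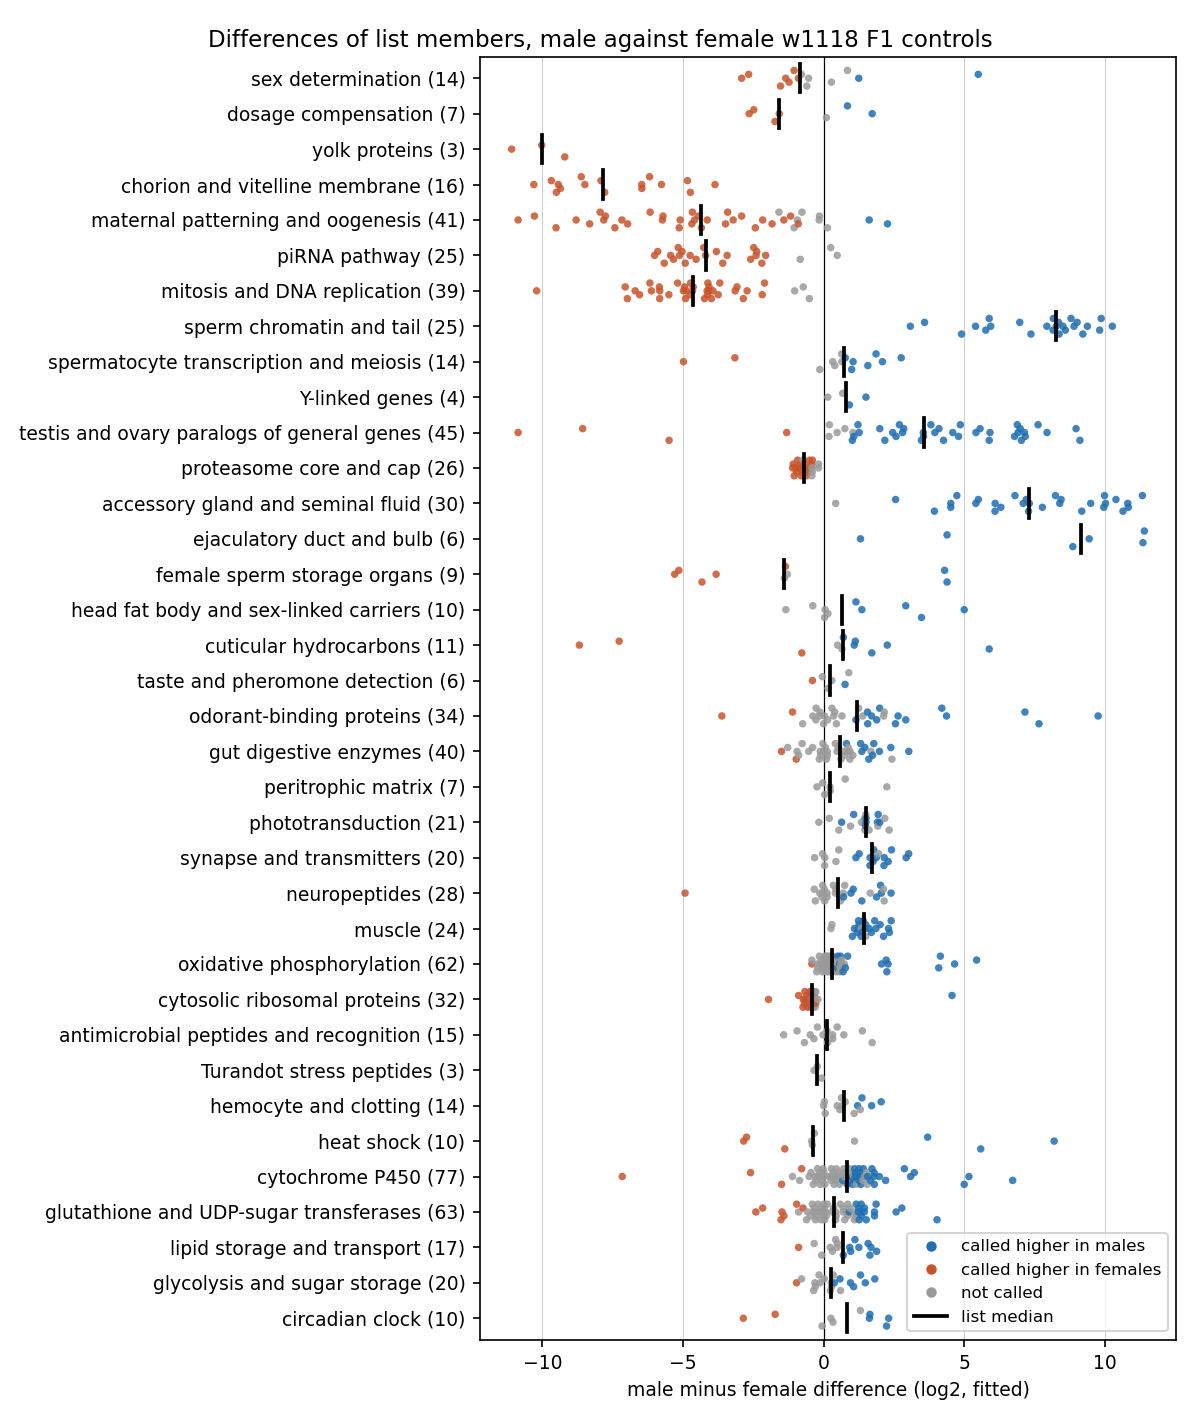
Fitted male minus female difference (log2, horizontal axis) of every tested member of 36 gene lists, with the number tested in brackets. Points are genes, coloured by call, and the black bar is the list median, which runs from -10.02 for yolk proteins to 9.16 for the ejaculatory duct and bulb.

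Of 14 tested genes of the sex determination pathway, 2 were higher in males and 7 higher in females, with a median difference of -0.84; after median centring (a scaling described above) 1 was higher in males and 11 in females, and without female array 2 the counts were 2 and 9. These main counts, like those of every list below, stand against 22.5% and 29.9% of all entries. Among the X-linked and autosomal signals that count X chromosomes, daughterless (da), a partner of the X-linked activators, was called: 9.81, 9.65 and 9.57 in males and 11.19, 10.65 and 10.97 in females. All 3 female arrays were above every male array, with a difference of -1.23 ± 0.20 (adjusted p = 1.48e-05). scute (sc), 1 of the X-linked activators, was not called (-0.78 ± 0.45, adjusted p = 0.153), and only female array 2 lay well above the floor. Sex-lethal itself, the switch gene, was not called at this probe set, at 9.73, 9.74 and 9.59 in males and 9.18, 9.68 and 9.46 in females. The groups overlapped, with a difference of 0.28 ± 0.19 (adjusted p = 0.229), whose sign turned to -0.53 after median centring. Female-specific splicing of Sex-lethal cannot be read from one 3' end. Several cofactors that act with Sex-lethal in splicing were higher in females. The m6A methyltransferase partner Mettl14 differed by -2.91 ± 0.54 (adjusted p = 7.32e-05), fl(2)d, a subunit of the same complex, by -1.53 ± 0.42 (adjusted p = 0.00379), and the splicing factor Spf45 by -1.34 ± 0.27 (adjusted p = 0.000211). None of their male arrays reached the lowest female array. Virilizer (vir) and the m6A reader Ythdc1 were not called, with -0.53 ± 0.27 (adjusted p = 0.109) and -0.59 ± 0.25 (adjusted p = 0.0503); with the replicate number as a block Ythdc1 passed (-0.58, adjusted p = 0.0352). Without female array 2 both passed, vir at -0.82 (adjusted p = 0.0152) and Ythdc1 at -0.72 (adjusted p = 0.0308).

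Downstream, tra, whose female form directs female development, was at 6.76, 7.01 and 6.57 in males and 7.47, 8.10 and 7.83 in females. Female arrays were all above male arrays, by -1.05 ± 0.32 (adjusted p = 0.00815). Its partner tra2 was called at -0.89 ± 0.36 (adjusted p = 0.0433), and leaving out any array other than female array 2 lost that call (adjusted p from 0.082 to 0.15). intersex (ix), which acts with the female doublesex protein, differed by -2.66 ± 0.47 (adjusted p = 3.42e-05). hermaphrodite (her), a zinc finger gene needed for yolk protein expression, was not called (0.85 ± 0.58, adjusted p = 0.231), though it was with the replicate number as a block (0.95, adjusted p = 0.0169). fruitless (fru), the neural effector of male courtship, was at 7.54, 7.28 and 7.48 in males and 5.53, 7.29 and 5.76 in females. Female array 2 reached the level of male array 2, so the groups overlapped, and the difference of 1.25 ± 0.43 (adjusted p = 0.0173) was lost without female array 1 (0.85, adjusted p = 0.13), female array 3 (adjusted p = 0.068) or male array 3 (adjusted p = 0.084).

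The effector doublesex (dsx) gave opposite results at its 2 probe sets. Probe set 1640799_at read 8.96, 9.15 and 9.05 in males and 3.29, 4.52 and 3.16 in females. It was high in every male array and close to the floor in female arrays 1 and 3, with a difference of 5.50 ± 0.40 (adjusted p = 1.59e-11). Probe set 1623776_s_at read 2.79, 2.74 and 2.72 in males and 5.61, 7.94 and 6.27 in females. Here the female arrays were all higher, female array 2 most of all, and the difference was -3.78 ± 0.49 (adjusted p = 4.72e-07). The sexes are known to end this transcript in different exons, and an array that reads 3' ends reports the ends apart. The files do not say which end each probe set reads.

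Among 7 genes of the dosage compensation machinery, 2 were higher in males and 4 in females. After median centring the counts were 0 and 4. msl-2, the subunit whose production Sex-lethal blocks in females, was at 6.93, 6.82 and 6.90 in males and 4.97, 5.87 and 4.87 in females. Every male array was above every female array, by 1.73 ± 0.54 (adjusted p = 0.00905) and the call was lost after median centring (adjusted p = 0.15). The ratio of its geometric means on the arrays, without the batch term, was 3.13. The subunits msl-1, msl-3 and mof ran the opposite way. msl-1 differed by -2.64 ± 0.41 (adjusted p = 7.35e-06), msl-3 by -2.48 ± 0.34 (adjusted p = 1.3e-06) and the histone acetyltransferase mof by -1.72 ± 0.51 (adjusted p = 0.00652), and CLAMP (Clamp), which guides the complex to the X and also acts elsewhere, by -1.57 ± 0.39 (adjusted p = 0.00144). The RNA helicase mle was not called (0.11 ± 0.81, adjusted p = 0.942). JIL-1, a histone kinase, was called higher in males by 0.85 ± 0.32, a call lost without any one of female array 1, female array 3, male array 2 or male array 3 (adjusted p from 0.06 to 0.23).

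**Figure D2:**
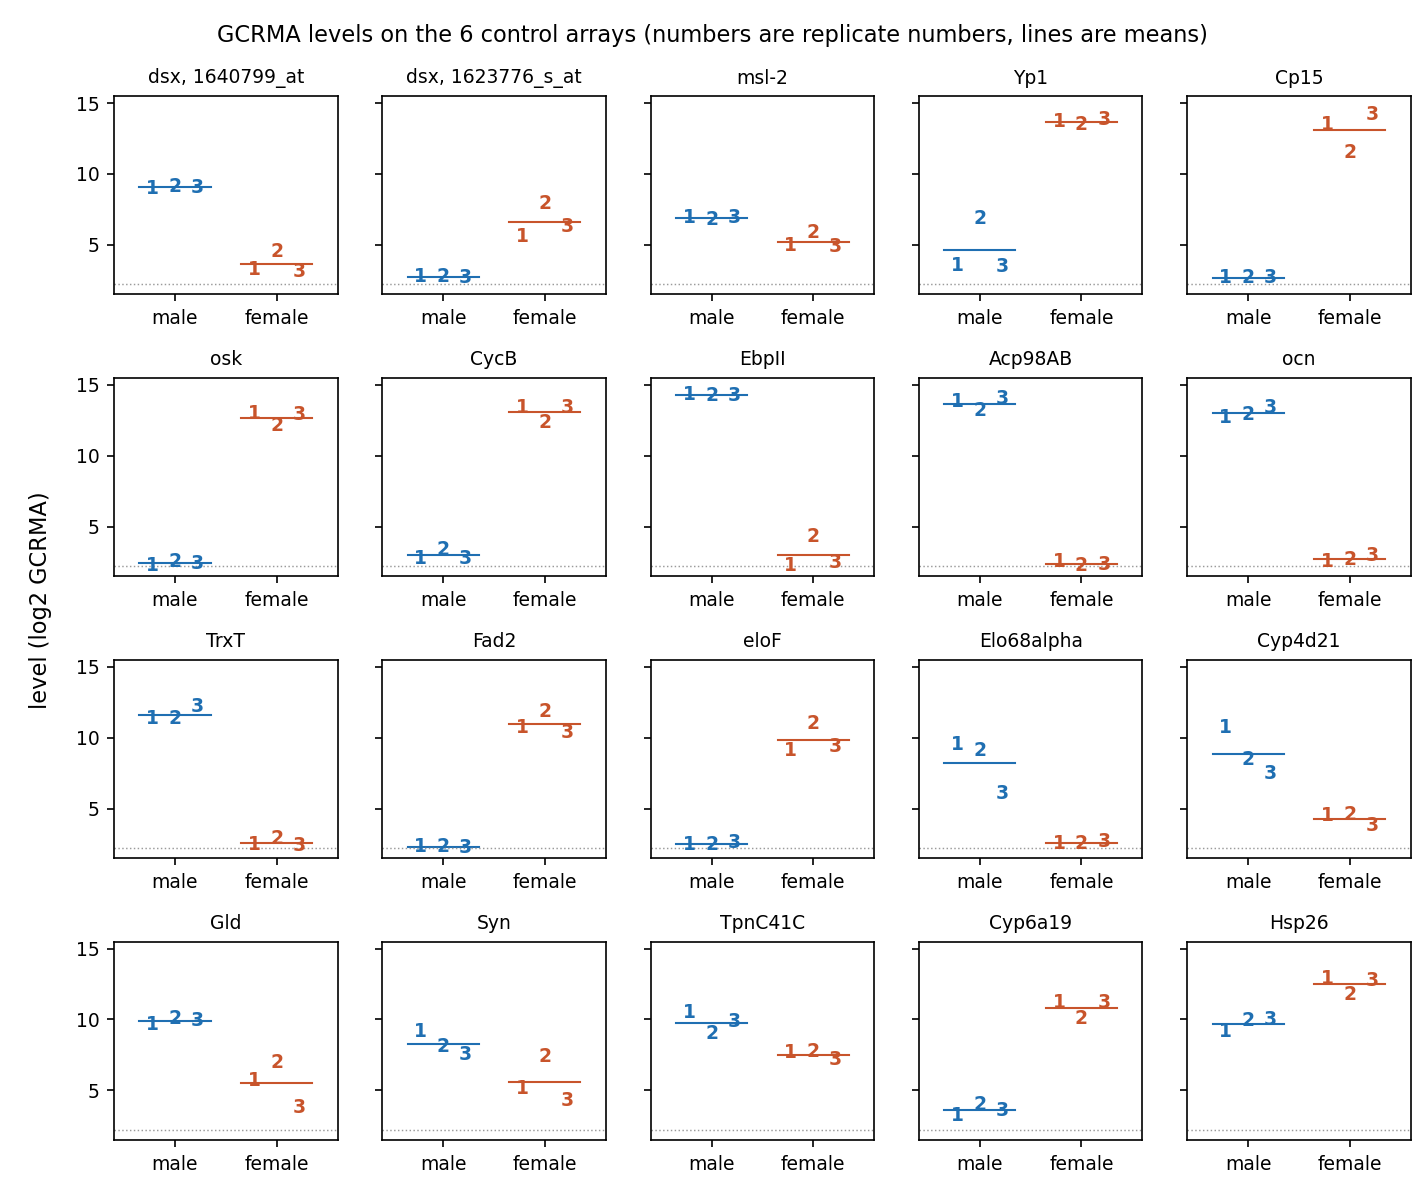
Levels (log2 GCRMA, vertical axis) of 19 genes, 1 of them with 2 probe sets, on the 3 male and 3 female control arrays. Digits are replicate numbers, horizontal lines are group means and the dotted line is the floor; the Yp1 panel shows male array 2 at 6.84 and the Cp15 panel shows female array 2 at 11.53.

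Yolk proteins and eggshell proteins gave some of the largest female differences. All 3 yolk protein genes, secreted by the female fat body and follicle cells, were called. Yp1 was at 3.52, 6.84 and 3.45 in males and 13.70, 13.48 and 13.86 in females. Male array 2 stood well above the other males and still far below every female array, and the difference was -9.20 ± 0.67 (adjusted p = 1.18e-11). Yp2 was at 2.81, 3.68 and 2.44 in males and 14.19, 13.49 and 14.39 in females, a difference of -11.09 ± 0.31 (adjusted p = 8.22e-20) and the largest in the female direction. Yp3 differed by -10.02 ± 0.47 (adjusted p = 1.71e-15). In each of the 3 genes male array 2 was the highest male. On the same array CycB was at 3.40, against 2.77 and 2.78 on male arrays 1 and 3, and the eggshell list had a median of 2.52, against 2.53 and 2.48; the part of other material in its yolk protein levels was not tested.

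All 16 tested genes of the chorion and the vitelline membrane, the layers of the eggshell, were higher in females, with a median of -7.85 and a range of -10.30 to -3.86. Cp15, a late chorion protein, was at 2.69, 2.69 and 2.68 in males and 13.50, 11.53 and 14.18 in females. The male arrays lay together just above the floor, and female array 2 was the lowest of the females; the difference was -10.30 ± 0.72 (adjusted p = 6.49e-12). Cp19, from the same chorion cluster, differed by -9.68 ± 1.43 (adjusted p = 3.34e-06). Without female array 2 the list median was -8.89.

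Maternal and germline genes followed. Of 41 genes of maternal patterning and oogenesis, 32 were higher in females and 2 in males, with a median of -4.34. After median centring 1 was higher in males and 38 in females. osk, which organises the germ plasm at the rear of the egg, was at 2.27, 2.54 and 2.41 in males and 12.97, 12.14 and 12.88 in females. The sexes were far apart on every array, by -10.28 ± 0.35 (adjusted p = 3.03e-18). nanos, the posterior determinant, differed by -9.51 ± 0.39 (adjusted p = 1.65e-16). dhd, a thioredoxin of the egg that acts on sperm chromatin after fertilisation, was at 3.94, 3.39 and 3.39 in males and 14.52, 14.06 and 14.69 in females, a difference of -10.86 ± 0.30 (adjusted p = 9.27e-20). The 2 exceptions were bgcn, a germline differentiation factor used in both gonads, higher in males by 2.28 ± 0.36 (adjusted p = 7.68e-06), and wbl (windbeutel), needed for dorsoventral patterning, at 6.76, 5.33 and 6.82 in males and 3.464, 4.598 and 6.31 in females. For wbl the groups overlapped through female array 3, and the call was lost without female array 1 (adjusted p = 0.10) or male array 1 (adjusted p = 0.081).

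The piRNA pathway, which silences transposons in the germline, had 22 of 25 members higher in females and 0 in males (median -4.19). After median centring 24 were higher in females. piwi was at 2.53, 2.56 and 2.57 in males and 8.69, 8.11 and 8.94 in females, a difference of -6.01 ± 0.30 (adjusted p = 6.2e-15), and krimp, a nuage component, differed by -5.90 ± 0.40 (adjusted p = 3.07e-12). Of 39 genes of mitosis and DNA replication, 36 were higher in females and 0 in males (median -4.63). The female count was 39 after median centring and 38 without female array 2. CycB, the mitotic cyclin B, was at 2.77, 3.40 and 2.78 in males and 13.42, 12.37 and 13.41 in females. No male array came near a female array, and the difference of -10.198 ± 0.31 (adjusted p = 6.11e-19) was among the 8 largest in the female direction. Orc1, of the origin recognition complex, differed by -7.05 ± 0.42 (adjusted p = 2.77e-13). In whole-fly RNA, fewer cells of a type and less RNA per cell cannot be told apart, here and in every list below.

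Testis transcripts made the mirror image. All 25 tested genes of sperm chromatin and the sperm tail were higher in males, from 3.09 to 10.27 with a median of 8.28. ocn, a testis protein gene, was at 12.71, 12.90 and 13.38 in males and 2.54, 2.66 and 2.94 in females. Every female array was within 1 unit of the floor, and the difference was 10.27 ± 0.27 (adjusted p = 3.65e-20). S-Lap7, a leucyl aminopeptidase of the sperm tail, differed by 9.87 ± 0.26 (adjusted p = 3.65e-20). Genes of spermatocyte transcription and meiosis were more mixed: of 14, 7 were higher in males and 2 in females, and the median of 0.71 turned to -0.10 after median centring, with 3 calls each way. Leaving out female array 1, female array 3 or male array 3 left 4 male calls. Rbp4, an RNA-binding protein of spermatocytes, was at 5.34, 5.60 and 6.68 in males and 2.84, 3.28 and 3.24 in females, a difference of 2.76 ± 0.45 (adjusted p = 1.42e-05). The testis transcription factor subunit Taf12L differed by 2.09 ± 0.53 (adjusted p = 0.00172). The 2 female calls were twe, the meiotic Cdc25 phosphatase, and CycB3, a cyclin; both genes also act in female meiosis. twe differed by -3.15 ± 0.51 (adjusted p = 1.2e-05) and CycB3 by -4.98 ± 0.40 (adjusted p = 7.1e-11).

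Y-linked genes, which carry male fertility factors, were near the floor in most arrays. Of 7 on the array 4 passed the filter and 2 were called, with a median of 0.80. After median centring the median was -0.01, and 0 were called higher in males and 1 in females. All 4 lay near the floor in females, and centring shifts floor values as well. That female call therefore does not show a Y-linked transcript in females. Pp1-Y2, a protein phosphatase gene, was at 3.38, 2.93 and 5.53 in males and 2.33, 2.35 and 2.43 in females. Male array 3 was the highest, and without it the difference of 1.51 ± 0.43 (adjusted p = 0.00461) fell to 0.72 and was not called (adjusted p = 0.10). ARY was at 2.52, 3.26 and 3.80 in males and 2.23 on all 3 female arrays. All females lay at the floor, and the call was lost without any one of female array 1, female array 3, male array 2 or male array 3 (adjusted p from 0.052 to 0.18). ORY (0.68 ± 0.34, adjusted p = 0.1) and Ppr-Y (0.15 ± 0.20, adjusted p = 0.56) were not called.

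Many general genes have a copy used mainly in a gonad. Of 45 such paralogs tested, 36 were higher in males and 4 in females, with a median of 3.56. After median centring the counts were 32 and 5. betaTub85D, the beta-tubulin of the testis, was at 11.57, 11.61 and 12.197 in males and 2.86, 2.96 and 2.45 in females. Its level was high in every male array and near the floor in females, a difference of 8.98 ± 0.40 (adjusted p = 5.33e-16), while the general tubulin betaTub56D differed by -1.31 ± 0.25 (adjusted p = 9.39e-05). alphaTub67C, the maternal alpha-tubulin, differed by -8.56 ± 0.49 (adjusted p = 1.24e-13). The thioredoxins divided 3 ways. TrxT, of the testis, was at 11.32, 11.33 and 12.21 in males and 2.44, 2.86 and 2.37 in females, a difference of 9.12 ± 0.36 (adjusted p = 4.98e-17); dhd, of the ovary, is given above; and the general Trx2 differed by -0.51 ± 0.18, a call lost without female array 3 (adjusted p = 0.10), male array 1 (adjusted p = 0.065) or male array 3 (adjusted p = 0.06).

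Paralogs were then set beside their general counterparts in pairs drawn up after the values were seen. Of 34 paralogs, 30 were higher in males, 1 was higher in females and 3 were not called, with a median difference of 3.56. Of their 26 counterparts, 1 was higher in males, 16 were higher in females and 9 were not called, and their differences ran from -1.79 to 0.38. COX6AL2, a copy of a cytochrome c oxidase subunit, was at 8.08, 7.92 and 8.88 in males and 2.48, 2.65 and 3.09 in females, a difference of 5.57 ± 0.24 (adjusted p = 4.47e-16). Its counterpart levy was not called (0.31 ± 0.21, adjusted p = 0.215). The sexes of this pair were far apart at the paralog and close at the counterpart.

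**Figure D3:**
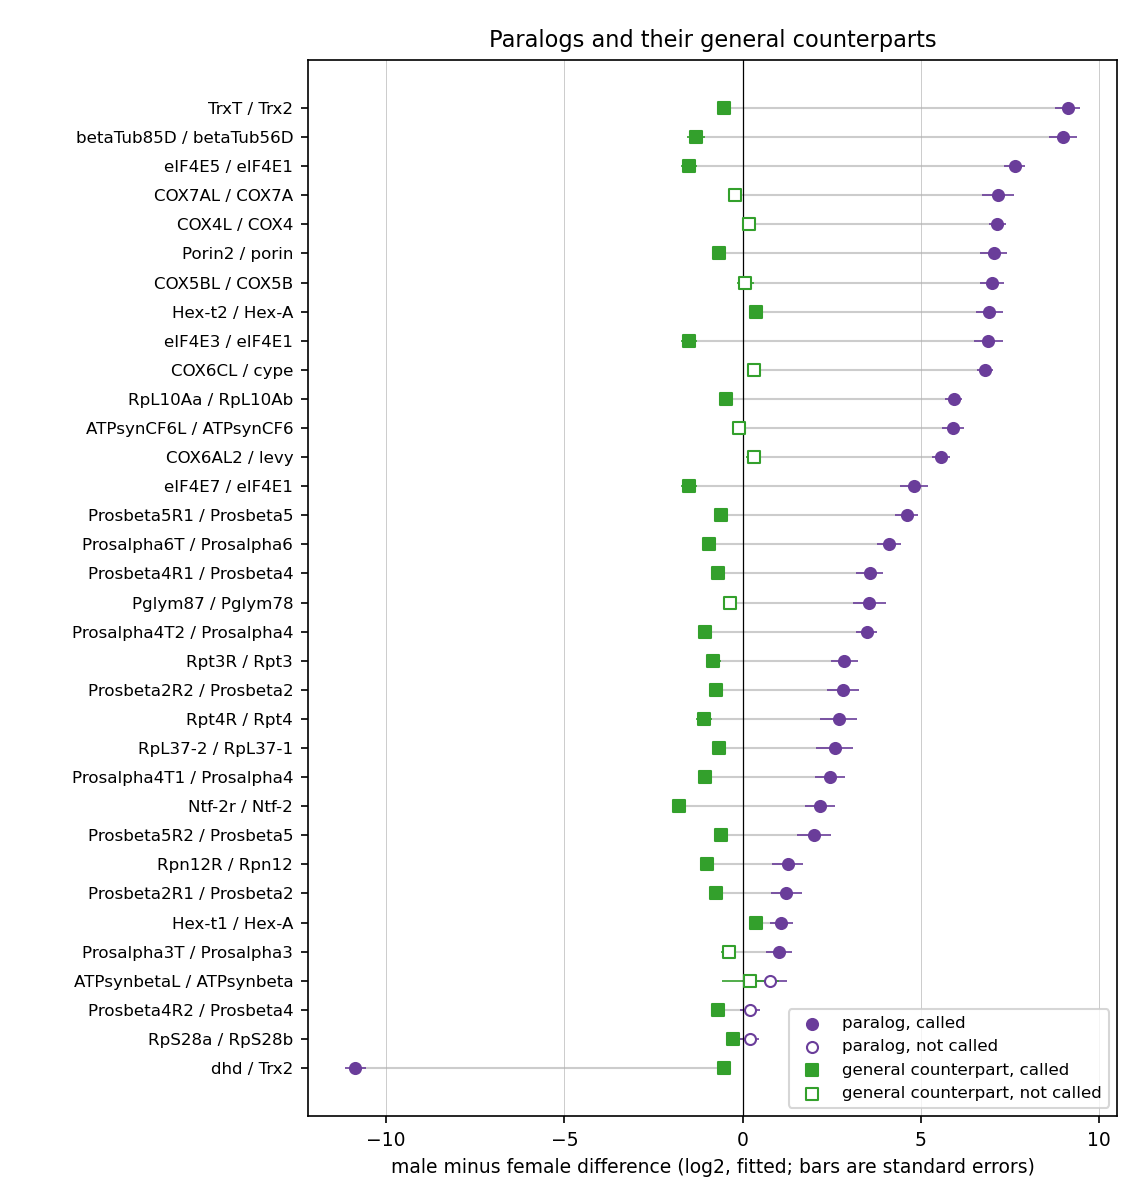
Fitted male minus female difference (log2, with standard error) of 34 gonad paralogs (circles) and of their general counterparts (squares), joined by pair. Filled symbols were called; all counterparts lie between -1.79 and 0.38, while dhd lies at -10.86 and TrxT at 9.12.

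General machinery of protein turnover and synthesis was slightly higher in females. Of 26 subunits of the proteasome, 20 were higher in females and 0 in males, with a median of -0.68, and only 3 reached 2-fold. After median centring 26 were higher in females. Rpn5, of the regulatory cap, was at 10.197, 10.27 and 10.05 in males and 11.63, 10.96 and 11.202 in females, a difference of -1.10 ± 0.19 (adjusted p = 3.99e-05). Rpt4, an ATPase of the cap, differed by -1.08 ± 0.22 (adjusted p = 0.000183). Of 32 entries for cytosolic ribosomal proteins, 26 were higher in females, 1 in males, and the median was -0.42. After median centring 1 was higher in males and 31 in females. RpL34a was at 10.55, 10.74 and 10.52 in males and 11.53, 11.49 and 11.46 in females, a difference of -0.89 ± 0.14 (adjusted p = 1.04e-05). The list, matched by symbol, also took in RpS28-like, higher in males by 4.57 ± 0.24 (adjusted p = 1.9e-14), and RpLP0-like, whose difference was -1.96 ± 0.43 (adjusted p = 0.000452). Leaving out single arrays gave 14 to 21 female calls for the proteasome and 19 to 25 for the ribosomal proteins, which had 18 after quantile normalisation. The male copies of proteasome subunits, such as Prosalpha6T (4.11 ± 0.35) and Prosbeta5R1 (4.598 ± 0.33), which are singled out after their values were seen, ran the other way.

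The single genes with the largest male differences belonged to the male reproductive tract outside the testis. Of 30 tested genes of the accessory gland and seminal fluid, 29 were higher in males and 0 in females (median 7.31). Acp98AB was at 13.83, 13.21 and 14.01 in males and 2.57, 2.25 and 2.33 in females, with a difference of 11.34 ± 0.49 (adjusted p = 3.91e-16). Acp53C14b differed by 10.84 ± 0.28 (adjusted p = 2.41e-20), and its neighbour in name Acp53C14a was at 13.15, 12.72 and 13.41 in males and 2.24, 2.29 and 2.23 in females. All female arrays of Acp53C14a were at the floor. Acp53Ea differed by 10.65 ± 0.34 (adjusted p = 9.92e-19), Mst57Da by 10.40 ± 0.59 (adjusted p = 8.6e-14) and CG17376, which is in none of the lists, by 10.38 ± 0.52 (adjusted p = 6.44e-15). SP, the sex peptide that changes egg laying and receptivity of mated females, is singled out here for its role after its values were seen. It was at 12.76, 12.32 and 13.07 in males and from 2.72 to 2.73 on the female arrays. The exception in the list was hdly, at 0.43 and not called.

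All 6 genes of the ejaculatory duct and bulb were higher in males (median 9.16). After median centring 5 were called higher in males. EbpII, an ejaculatory bulb protein, was at 14.35, 14.28 and 14.25 in males and 2.24, 4.29 and 2.46 in females. It had the largest difference of any gene, 11.41 ± 0.51 (adjusted p = 5.98e-16), and female array 2 was the highest female. Ebp, the mating plug protein of the bulb, was at 14.02, 13.91 and 13.51 in males and 2.27, 3.16 and 2.32 in females, again highest among females on array 2, with a difference of 11.36 ± 0.47 (adjusted p = 1.76e-16). Dup99B, a duct peptide related to the sex peptide, was at 11.22, 11.03 and 11.78 in males and 2.44, 2.51 and 2.58 in females, a difference of 8.87 ± 0.16 (adjusted p = 1.22e-22). The list had a median level of 3.72 on female array 2, against 2.36 and 2.52 on female arrays 1 and 3, and between 12.82 and 12.98 in males. The median of the accessory gland list on female array 2 was 2.66, against 2.61 and 2.70, and its mean 3.18, against 3.00 and 3.05; among its members, Mst57Da was at 4.20 on that array, against 3.18 and 2.72, and Acp53Ea at 2.93, against 2.31 and 2.32. The part of male material in the values of female array 2 was not tested.

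Sperm storage organs of the female were represented by 9 genes, 5 higher in females and 2 in males. After median centring 2 were higher in males and 7 in females. Send1, a protease of the spermathecae, was at 2.23 on all 3 male arrays and 6.48, 8.07 and 8.14 in females. Every male array was at the floor, so it was at least 40.3-fold higher in females (-5.29 ± 0.34, adjusted p = 1.08e-12). CG32834, another protease, differed by -5.14 ± 0.31 (adjusted p = 3.64e-13). Send2, singled out after its values were seen, was at 2.24 on every male array and on female arrays 1 and 3, and at 6.55 on female array 2. The 2 male calls were Gld, glucose dehydrogenase, which is made in the ejaculatory duct as well as in the spermathecae, and CG32833. Gld was at 9.68, 10.10 and 9.94 in males and 5.71, 6.97 and 3.78 in females. Female arrays were spread widely, with array 2 the highest, and all were below the males (4.39 ± 0.78, adjusted p = 4.05e-05). CG32833 differed by 4.30 ± 0.43 (adjusted p = 6.34e-09).

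Genes of pheromone synthesis were called in both directions. Of 11 genes of cuticular hydrocarbon synthesis, 6 were higher in males and 3 in females; the median of 0.71 turned to -0.11 after median centring, with 2 and 3 calls. Fad2, the desaturase that makes the dienes of female cuticle, was at 2.30, 2.32 and 2.26 in males and 10.71, 11.82 and 10.33 in females. All males were at the floor, and females were at least 405-fold higher (-8.68 ± 0.40, adjusted p = 1.3e-15). eloF, the elongase of the same female pathway, was at 2.49, 2.45 and 2.61 in males and 9.12, 10.98 and 9.35 in females, a difference of -7.27 ± 0.47 (adjusted p = 1.07e-12). For both genes female array 2 was the highest of the females, unlike for the ovary genes. Elo68alpha, an elongase of male lipids, was at 9.52, 9.07 and 6.09 in males and 2.56, 2.55 and 2.70 in females. Male array 3 was the lowest male by a wide margin, yet above every female, and the difference was 5.89 ± 1.12 (adjusted p = 8.86e-05). FASN2, a fatty acid synthase, differed by 2.27 ± 0.72 (adjusted p = 0.00992), a call lost without female array 3 (1.91, adjusted p = 0.066).

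The fat body around the brain carries several genes under control of the sex determination pathway. Of 10 such genes 5 were higher in males and 0 in females, and their median of 0.66 turned to -0.16 after median centring, with 2 calls each way. Cyp4d21, a cytochrome P450 of the male head needed for courtship, was at 10.69, 8.44 and 7.50 in males and 4.48, 4.56 and 3.80 in females. The males spanned more than 3 units and still lay above all females, a fitted difference of 5.004 ± 1.24 (adjusted p = 0.00147). The ratio of geometric means on the arrays, without the batch term, was 24.2. sxe2, a lipase gene, was at 8.31, 6.93 and 6.02 in males and 4.05, 4.03 and 3.18 in females, a difference of 3.48 ± 0.70 (adjusted p = 0.000162), with the same order of the male arrays. fit, a female fat body satiety signal singled out after its values were seen, was at 11.25, 10.35 and 10.12 in males and 11.99, 12.34 and 11.80 in females. The arrays did not overlap, but the difference of -1.34 ± 0.63 did not pass the test (adjusted p = 0.0783).

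Of 34 tested odorant-binding proteins, small carriers best known from antennae, 14 were higher in males and 2 in females (median 1.20). After median centring 8 were higher in males and 10 in females, with a median of 0.39. The largest were Obp51a at 12.05, 12.44 and 12.65 in males and 2.39, 2.99 and 2.37 in females and Obp56f at 10.52, 10.44 and 10.63 in males and 3.08, 2.98 and 2.35 in females. Both were more than 7 units apart between the sexes, 9.76 ± 0.21 (adjusted p = 1.38e-21) and 7.66 ± 0.40 (adjusted p = 1.45e-14), and both genes are known from male seminal fluid. Obp19c was at 2.29, 2.36 and 2.39 in males and 6.54, 2.98 and 7.97 in females. The female arrays ran from near the male level on array 2 to far above it, and the difference of -3.62 ± 0.87 (adjusted p = 0.00113) was not called when the 6 arrays were fitted alone (adjusted p = 0.083). Obp56e was called at -1.10 ± 0.45 (adjusted p = 0.0435), a call lost without female array 2, female array 3, male array 2 or male array 3 (adjusted p from 0.095 to 0.16). Of 11 genes of taste and pheromone detection, 5 were below the filter; of the 6 tested 1 was called in each direction, or 0 and 2 after median centring. lush, an odorant-binding protein for a male pheromone, was called at 0.77 ± 0.28. ppk29, a channel subunit of pheromone sensing, had a difference of -0.39 ± 0.15 (adjusted p = 0.0316). Both calls were lost when female array 3 or male array 3 was left out, and that of ppk29 also without female array 1 or male array 1 (adjusted p from 0.08 to 0.18 for the pair).

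**Figure D4:**
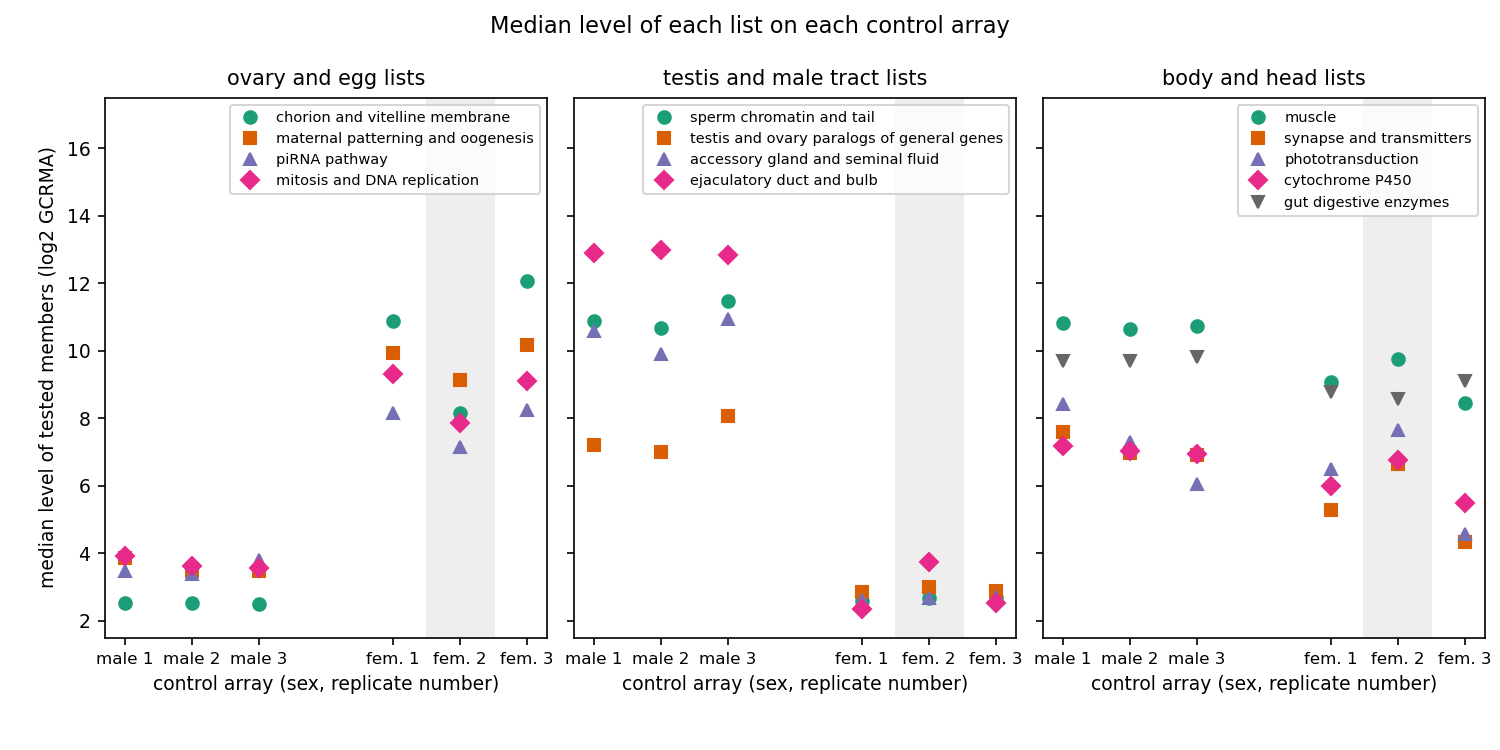
Median level (log2 GCRMA, vertical axis) of tested members of 13 lists on each of the 6 control arrays, for ovary lists, testis and male tract lists, and lists of body and head. The grey band marks female array 2, where ovary lists are lowest among the females (eggshell 8.14) and muscle (9.76) and synapse (6.65) lists are highest.

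Genes of muscle and nerve were higher in males, alongside the levels of ovary genes in females. Of 24 muscle genes 20 were higher in males and 0 in females, with a median of 1.44, or 0.63 after median centring. Without female array 2 the male count was 19 and the median 1.74. Their median level was 10.81, 10.64 and 10.73 in males and 9.06, 9.76 and 8.45 in females. The order of the 3 female arrays was the reverse of that of the eggshell list, 10.87, 8.14 and 12.08. TpnC41C, a troponin C of adult muscle, was at 10.49, 8.98 and 9.84 in males and 7.70, 7.71 and 7.17 in females, a difference of 2.41 ± 0.71 (adjusted p = 0.00606). Act79B, an actin of leg and thorax muscles, differed by 2.34 ± 0.68 (adjusted p = 0.00531). Its call was lost without female array 3 (1.76, adjusted p = 0.064), and the list count fell to 12 without that array and to 5 after median centring.

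Of 20 synapse genes, 13 were higher in males and 0 in females (median 1.71, or 0.90 after median centring, with 5 higher in males and 4 in females). nSyb, the vesicle protein synaptobrevin of neurons, was at 8.70, 7.44 and 7.40 in males and 5.42, 6.60 and 3.30 in females. Males were above females on every array, the nearest being female array 2, with a difference of 3.03 ± 0.65 (adjusted p = 0.000345). Syn, synapsin, was at 9.18, 8.12 and 7.54 in males and 5.13, 7.38 and 4.27 in females, and its difference of 2.94 ± 0.91 (adjusted p = 0.00855) was lost without female array 3 (adjusted p = 0.051). Leaving out female array 1 or female array 3 reduced the list count to 8. Without female array 2 the list count was 14 and the median 2.29. In the eye, 8 of 21 phototransduction genes were higher in males and 0 in females (median 1.495). Without female array 1, female array 3, male array 1 or male array 3 in turn, the list count was 2, 3, 2 and 3, and after median centring 0 were higher in males and 1 in females. Without female array 2 the list count was 9 and the median 1.98. ninaB, which cleaves carotenoids to make retinal, was at 6.10, 4.03 and 4.04 in males and 3.06, 2.90 and 2.94 in females. Male array 1 was well above the other arrays, and without it the difference of 1.94 ± 0.61 (adjusted p = 0.00904) was not called (1.25, adjusted p = 0.12). eys, of the eye's extracellular matrix, was called at 2.00 ± 0.75 (adjusted p = 0.0281) with overlapping arrays, and the call was lost without female array 1, female array 3 or male array 1 (adjusted p from 0.069 to 0.17). The part of ovary RNA in these differences was not tested.

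Of 28 neuropeptide genes, 8 were higher in males and 1 in females (median 0.52, or -0.29 after median centring, with 2 and 8 calls). Ilp8, a relaxin-like peptide that is also made in the ovary, was the female call, at 2.42, 2.54 and 2.45 in males and 8.35, 6.36 and 7.43 in females. All males were near the floor, female array 2 was the lowest female, and the difference was -4.92 ± 0.58 (adjusted p = 9.28e-08). CCHa2, a peptide of gut and fat body, was at 10.15, 9.85 and 10.004 in males and 7.43, 9.02 and 7.50 in females, a difference of 2.05 ± 0.50 (adjusted p = 0.00117). Nplp1, a neuropeptide precursor, was called at 2.40 ± 0.94, a call lost without any one array other than female array 2 (adjusted p from 0.061 to 0.13). The male count was 3 without female array 1 or female array 3, 4 without male array 1, and 5 without male array 3.

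Of 40 digestive enzymes of the gut, 10 were higher in males and 2 in females. After median centring 4 were higher in males and 6 in females, and the median of 0.57 turned to -0.24. Maltases, which split sugars in the midgut, gave the 2 largest male differences. Mal-A7 was at 11.73, 11.13 and 11.95 in males and 9.21, 7.45 and 9.13 in females, a difference of 3.03 ± 0.68 (adjusted p = 0.000562). Mal-A8 was at 10.60, 10.52 and 10.97 in males and 8.29, 7.85 and 8.41 in females, a difference of 2.39 ± 0.61 (adjusted p = 0.00189). Another maltase, Mal-A5, was higher in females by -0.97 ± 0.29 (adjusted p = 0.00761), a call lost without male array 3 (adjusted p = 0.067), and Jon66Cii, a trypsin-like protease, by -1.495 ± 0.29 (adjusted p = 0.000119). None of the 7 genes of the peritrophic matrix, the lining of the midgut, was called in limma's moderated test, and 0 had an unadjusted p under 0.05; 2 were called higher in females after median centring. The one of smallest p, Muc68Ca, was at 4.76, 7.91 and 6.84 in males and 2.99, 6.29 and 2.72 in females, with overlapping groups and a difference of 2.25 ± 1.19 (adjusted p = 0.118), and it was called without female array 2 (3.44, adjusted p = 0.0198) and with the replicate number as a block (adjusted p = 0.00185).

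Detoxification enzymes had wide ranges in both directions. Of 77 cytochrome P450 genes, 31 were higher in males and 4 in females (median 0.84, or 0.03 after median centring, with 8 higher in males and 20 in females). Without female array 3 the male count was 16. Cyp6a19 was at 3.22, 3.99 and 3.61 in males and 11.22, 10.05 and 11.17 in females. Its female levels were high on every array, the difference was -7.16 ± 0.52 (adjusted p = 1.28e-11), and female array 2 was the lowest female, as for the ovary lists. Cyp312a1 was at 10.15, 9.94 and 9.91 in males and 2.83, 4.14 and 3.02 in females, a difference of 6.73 ± 0.35 (adjusted p = 1.85e-14) in the male direction. Cyp313a1 differed by 5.17 ± 1.28 (adjusted p = 0.0015) with widely spread males, and Cyp6v1 by -2.59 ± 0.48 (adjusted p = 6.03e-05). Of 63 glutathione transferases and UDP-glycosyltransferases, 17 were higher in males and 7 in females (median 0.36, or -0.46 after median centring, with 6 and 24 calls). Ugt50B3 was at 9.49, 8.66 and 9.91 in males and 4.72, 6.50 and 4.94 in females, a difference of 4.04 ± 0.59 (adjusted p = 3.21e-06). Ugt37B1 was higher in males by 2.79 ± 0.35 (adjusted p = 2.83e-07). Ugt316A1 differed by -2.41 ± 0.38 (adjusted p = 7.92e-06) and GstZ1, a zeta-class glutathione transferase, by -2.16 ± 0.30 (adjusted p = 1.26e-06).

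In metabolism, 9 of 17 genes of lipid storage and transport were higher in males and 1 in females (median 0.71, or -0.11 after median centring, with 1 and 3 calls). GLaz, a lipocalin, was at 8.22, 7.64 and 7.16 in males and 5.63, 6.55 and 5.32 in females, a difference of 1.89 ± 0.38 (adjusted p = 0.000156). The lipoprotein receptor LpR2 was called at 1.69 ± 0.59 (adjusted p = 0.0191), a call lost without female array 1, female array 3 or male array 3 (adjusted p from 0.079 to 0.11). Lsd-2, a perilipin of lipid droplets that is also abundant in the ovary, was the female call, at 12.16, 12.21 and 12.06 in males and 13.18, 12.77 and 13.23 in females and -0.89 ± 0.24 (adjusted p = 0.00308). The male count was 3, 4 and 5 without female array 1, female array 3 and male array 3. Of 20 genes of glycolysis and sugar storage, 7 were higher in males and 1 in females (median 0.28, or -0.53 after median centring, with 1 and 12 calls), and the male count was 4 without female array 3. The female count was 3 without female array 2 or with the replicate number as a block. Hex-C, the hexokinase of fat body and gut, was at 10.24, 9.98 and 10.58 in males and 8.44, 9.16 and 7.87 in females, a difference of 1.83 ± 0.34 (adjusted p = 8.24e-05). The trehalose transporter Tret1-1 differed by 1.49 ± 0.35 (adjusted p = 0.001). AGBE, the glycogen branching enzyme, was higher in females by -0.96 ± 0.30 (adjusted p = 0.00884), a call lost without female array 1 (adjusted p = 0.085) or male array 3 (adjusted p = 0.062).

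Of 62 genes of oxidative phosphorylation, 15 were higher in males and 1 in females, and the median of 0.29 turned to -0.52 after median centring, with 8 and 29 calls. The female count was 2 without female array 2. The 8 male calls of at least 2-fold included copies whose symbols end in L. ND-B14.5AL, a copy of a complex I subunit, was at 8.10, 7.56 and 8.86 in males and 2.71, 2.71 and 2.73 in females, a difference of 5.44 ± 0.24 (adjusted p = 3.85e-16), and UQCR-11L, of complex III, differed by 4.66 ± 0.42 (adjusted p = 8.94e-10). The female call, ND-ACP, a subunit that also carries acyl groups in mitochondria, had a difference of -0.41 ± 0.17 and was lost without female array 1, female array 3, male array 2 or male array 3 (adjusted p from 0.099 to 0.18).

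Antimicrobial peptide genes did not pass the test in either direction. None of 15 antimicrobial peptides and recognition proteins was called in limma's moderated test, and 2 had an unadjusted p under 0.05; 1 was called without female array 2 and 1 after quantile normalisation, both higher in males, and 2 were called higher in females after median centring. Drsl5, a drosomycin-like peptide, had the smallest p, at 10.99, 10.03 and 9.78 in males and 8.60, 9.80 and 7.80 in females and a difference of 1.73 ± 0.73 (adjusted p = 0.051), with female array 2 within the male range; with the replicate number as a block it was called (1.62, adjusted p = 0.0205), and the list then had 1 call in each direction. None of the 3 Turandot stress peptides was called in limma's moderated test, and 0 had an unadjusted p under 0.05. After median centring 2 were called higher in females, and after quantile normalisation 0 were called. TotF differed by -0.22 ± 0.18 (adjusted p = 0.32). Of 14 hemocyte and clotting genes 4 were higher in males and 0 in females (median 0.72, or -0.09 after median centring, with 1 and 3 calls), with 2 without female array 1 and 6 without female array 2. Hml, the hemolectin of blood cells, was at 7.58, 6.92 and 6.998 in males and 5.53, 5.58 and 4.44 in females, a difference of 2.05 ± 0.41 (adjusted p = 0.000174). The scavenger receptor Sr-CI was called at 1.71 ± 0.62 (adjusted p = 0.0225), a call lost without female array 1, female array 3 or male array 1 (adjusted p from 0.06 to 0.091).

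Heat shock genes went both ways. Hsp26 was at 9.13, 9.95 and 9.999 in males and 12.93, 11.78 and 12.73 in females, a difference of -2.84 ± 0.44 (adjusted p = 6.31e-06), and Hsp27 differed by -2.74 ± 0.40 (adjusted p = 2.65e-06); both small heat shock proteins are known to be made in the ovary without stress. Copies of the mitochondrial chaperonin lay on the male side. Hsp60C, a copy used in the male germline, was at 10.01, 10.57 and 11.16 in males and 2.23, 2.30 and 2.38 in females, a difference of 8.202 ± 0.30 (adjusted p = 2.05e-17), and Hsp60B, another testis copy, differed by 5.59 ± 0.40 (adjusted p = 9.7e-12). Of 10 heat shock genes, 3 were higher in males and 3 in females, or 5 with the replicate number as a block; after median centring the counts were 3 and 6. Of 10 circadian clock genes, 4 were higher in males and 2 in females (median 0.82, or 0.01 after median centring, with 2 and 3 calls). cry, the blue-light receptor, was at 9.66, 9.49 and 9.46 in males and 6.87, 7.97 and 6.98 in females, a difference of 2.32 ± 0.50 (adjusted p = 0.000351), and the activator Clk differed by 2.24 ± 0.57 (adjusted p = 0.00178). Its partner cyc was at 6.33, 6.58 and 5.81 in males and 9.42, 8.53 and 9.07 in females, and the difference of -2.85 ± 0.34 (adjusted p = 1.12e-07) was in the female direction, as was that of the kinase dco (-1.72 ± 0.27, adjusted p = 9.27e-06).

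Several genes besides dsx had probe sets that moved in opposite directions. Of 184 genes with 2 or more called probe sets, 27 had a probe set called in each direction. lola, a gene with many alternative 3' ends that encodes transcription factors, had 15 probe sets. Its probe set 1625768_s_at read 4.23, 4.55 and 4.15 in males and 12.39, 11.45 and 12.27 in females, a difference of -7.78 ± 0.45 (adjusted p = 1.23e-13), while 1628421_at read 8.29, 8.24 and 8.29 in males and 5.92, 7.38 and 6.0 in females, a difference of 1.86 ± 0.36 (adjusted p = 0.000133). The first was far higher in females on every array, and the second was higher in males, nearest on female array 2. hts, which encodes adducin and ovarian ring canal proteins, read 3.22, 2.46 and 2.75 in males and 9.24, 7.53 and 9.02 in females at 1634736_at, a difference of -5.87 ± 0.47 (adjusted p = 8.3e-11). At 1634962_s_at it was higher in males (1.39 ± 0.45, adjusted p = 0.0119). mud, a spindle orientation gene, differed by -4.87 ± 0.58 (adjusted p = 1.14e-07) at 1628717_a_at and by 1.96 ± 0.44 (adjusted p = 0.000673) at 1624624_at. A single probe set for such a gene reports 1 of these results.

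By chromosome arm, as assigned in the RefSeq gene table, the X stood apart from the large autosomal arms. Of 1658 X-linked entries, 16.5% were called at 2-fold higher in males and 35.2% higher in females, with a median difference of -0.31. On 2L, 2R, 3L and 3R together, 23.7% of 8694 entries were higher in males and 25.7% higher in females, with a median of -0.02. The arms ranged from 22.4% to 26.0% on the male side and from 24.6% to 26.4% on the female side. The small chromosome 4, with 61 entries, had 29.5% higher in males and 13.1% higher in females, and its median of 0.47 turned to -0.34 after median centring. The order of the X and the large arms was the same after quantile normalisation (14.8% and 36.8% on the X), after median centring (9.53% and 53.2%) and without female array 2 (18.9% and 36.9%). These are descriptions with no test, since genes of an arm are not independent samples.

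The sex differences of the controls were set beside those of other flies in the series. In the 5 other founder and F1 genotypes, of which each has its own male and female arrays, 5631 of the 5701 entries called at 2-fold (98.8%) had the same sign in all 5. The same share over all entries tested was not counted. The arrays of these genotypes also entered the spread and batch terms of the fit that gave the calls. F3 controls, w1118 flies of a later generation with 4 arrays per sex, were fitted with the F1 controls in a model of all 66 arrays. There, of 13420 entries tested, 5551 were called at 2-fold in the F1 controls and 6762 in the F3 controls. Of these 5311 were shared in the same direction, which is 95.7% of the F1 list and 78.5% of the F3 list, and 0 were called in opposite directions. Across entries the F1 and F3 differences had a Pearson r of 0.978, given as a description because genes are not independent replicates.

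**Figure D5:**
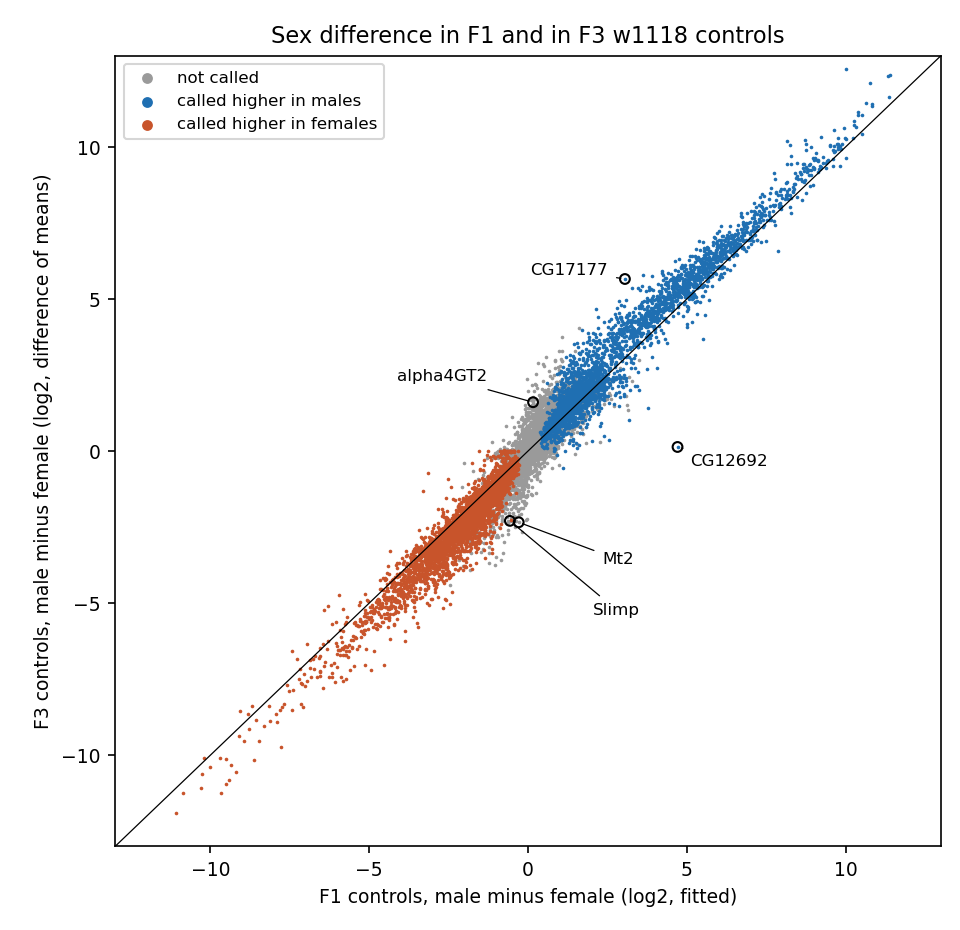
Male minus female difference of each entry in the F1 controls (fitted, log2) against that in the F3 controls (difference of group means, log2), coloured by the call in the F1 controls, with the diagonal of equal difference. Circles mark 5 of the 6 named genes whose sex difference was called as different; CG12692 lies at 4.71 in F1 and 0.13 in F3.

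The difference between the 2 sex differences was itself tested for every entry. Against the F3 controls it was called for 34 of 13420 entries (0.253%), 13 more positive in the F1 controls and 21 more negative. CG12692, an X-linked gene, was at 6.95, 6.46 and 7.37 in F1 control males, at the floor in F1 control females and between 2.26 and 2.51 in F3 control males. The difference of the differences was 4.55 ± 0.60 (adjusted p = 1.93e-05). That count moved to 5 without male array 2, 18 without female array 2, 21 without male array 1, 53 without female array 3 and 150 without male array 3, and was 60 with the replicate number as a block. Against the founders it was called for 17 of 12809 entries (0.133%), 10 more positive and 7 more negative in the controls. CG12692 was among these as well, at 4.84 ± 0.90 (adjusted p = 0.0194). Ser12, a serine protease gene, was at the floor on all 6 control arrays and on the founder males, and at 8.23, 7.94 and 7.84 in founder females. Its fitted difference of differences was 6.37 ± 1.05 (adjusted p = 0.00639). The fit holds batch terms, and it gave the controls a sex difference of 0.25 ± 0.72 although all 6 arrays were at the floor. That count was 8 without male array 1 or female array 3, 9 without male array 3 and 11 without male array 2. Founders also carry constructs and balancers that the controls lack, so sex-specific effects of these and of the ablation cannot be told apart.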

How the data were processed

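Whole-body RNA was measured on Affymetrix 3' IVT arrays. The authors deposited log2 expression levels per probe set. Per the submitters' processing notes these involved GCRMA (version not listed) and limma 3.46.0, with roles not stated; the genome build and chip definition are not given in the sources used here. What the labelled batch numbers stand for is also not given. Precision is limited by the number of arrays, 3 a sex.

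Of 18952 probe sets, 183 controls were dropped, leaving 18769. Among them 13646 had 1 gene symbol in the platform annotation, 402 several and 4721 none. RefSeq's gene table held 13543 of the single-gene probe sets by Entrez identifier and gave their chromosome arm. Where a gene had more than 1 probe set, the one with the highest mean over the arrays fitted was used. Entries above the 40th percentile of all values (2.60) in at least 3 arrays were tested.

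Differences came from limma 3.58.1 in R 4.3.3: lmFit and eBayes on 36 founder and F1 arrays in 12 groups, with the labelled batch as a factor (4 batches, 21 residual degrees of freedom), two-sided, with Benjamini-Hochberg adjustment over all entries. The comparison with F3 controls used all 66 arrays (43 residual degrees of freedom). The design text speaks of biological replicates, and p-values measure the spread between arrays. The procedure was tested on simulated data. Figures were drawn with matplotlib 3.10.9.

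Male and female arrays carry the same replicate numbers. Deviations of same-numbered arrays from their group means correlated at 0.15, 0.14 and 0.25, and those of other pairs at -0.19 to 0.05. Some same-numbered arrays also share a labelled batch, and deviations from a mean of few arrays are not independent of each other. These values therefore do not establish a pairing, no label states it, and the part of the batch in them was not tested. The main fit, which gave all values not marked otherwise, had no block. A fit with the number as a block was an alternative, and it gave 7191 called entries against 6712.

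The groups and the 36 gene lists (884 members with a probe set, 137 not matched) were chosen with earlier results of these data known. Named genes are the 8 largest called differences in each direction with separate arrays, all measured members of the sex determination, dosage compensation, yolk and Y-linked lists, the 2 largest called members per direction of every other list (or the smallest p where none was called), the 4 genes with the widest opposite probe sets, the 3 smallest p-values per direction of each difference of differences, and the counterparts of named paralogs. Other genes are named as chosen after their values were seen. Alternatives were no batch term, the replicate block, the compared arrays alone, all 66 arrays, every probe set, a stricter filter (60th percentile) or none, quantile normalisation, median centring, a trended robust spread, and leaving out each array; for the F3 comparison also batches numbered separately and the F3 arrays numbered 3 left out. Leaving out both arrays numbered 2 was added after the data were seen. Promoter motifs were not analysed here.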

Additional observations from a re-analysis of the deposited data

Results flagged for a closer look

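These 12 differences between sex differences were tested as such and passed (limma, adjusted over all entries). Each value is the male minus female difference of the F1 controls minus that of the other flies, on the log2 scale, fitted with the batch terms.

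Against founders, CG15239 gave -3.54 and Ser12 6.37. Both genes were at the floor on all 6 control arrays, so that the signal lay in the founders, in males for CG15239 (6.66, 5.89 and 5.76) and in females for Ser12 (8.23, 7.94 and 7.84). CG8654 gave -2.83: the controls averaged 9.96 in males and 7.93 in females, and the founders 9.05 and 4.04. COX6AL2, the cytochrome c oxidase copy, gave 2.59, with male means of 8.29 in controls and 5.37 in founders and female means of 2.74 and 2.53. Dup99B, the duct peptide, gave -1.34, with male means of 11.3 and 12.5. CG17177 gave 2.90, with male means of 5.62 in controls and 2.40 in founders.

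Against F3 controls, CG12692 gave 4.55, with male means of 6.92 in the F1 and 2.38 in the F3 controls. Its sex difference was also called against the founders (4.84, in 12 of 15 alternatives), whose male mean was 2.245. In the F2 controls its male minus female difference was 0.18. CG17177 gave -2.35, with male means of 5.62 and 7.95; it was thus higher in F1 control males than in founder males and lower than in F3 control males. alpha4GT2 gave -1.49 and gsb-n -1.08, and in both the F3 control males were above the floor (means 4.04 and 3.27) while the F1 control males were at means of 2.61 and 2.26. Slimp gave 1.75 and Mt2, a DNA methyltransferase homologue, 2.06. Their female means were 5.45 and 2.54 in the F1 controls and 6.44 and 4.58 in the F3 controls. F1 and F3 arrays also differed in the number of probe sets at the floor, from 6085 to 6584 on the F1 control arrays and from 6820 to 7210 on the F3 control arrays, and the part of this in the differences was not tested.

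Under the alternatives that measured them, CG15239, CG8654 and Ser12 were called in 15 of 15, COX6AL2 in 14 of 15, CG17177 in 11 of 14 and Dup99B in 9 of 15 against the founders. Against the F3 controls CG12692 was called in 15 of 15, Slimp in 14 of 15, alpha4GT2, Mt2 and gsb-n in 13 of 14 and CG17177 in 11 of 15.

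In the F3 control females, CG17177 was at 2.41 on array 2 and at 2.25 to 2.26 on the other 3, a gap that a test for a stray value in a small group marks in about 1 of 20 groups by chance. All 4 values lie within 0.2 of the floor.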

How the results depend on the processing

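Of 136 named genes, 118 were called, and 91 of these were called under every alternative that measured them. Over 17 alternatives, 2297 values were recomputed: 2146 kept direction and side of the threshold, 113 called values lost the call, 33 gained one, and 5 changed sign, all under median centring: CG15239 -0.75, Ppr-Y -0.66, Sxl -0.53, alpha4GT2 -0.65 and lush -0.046. The replicate block lost 0 of the called genes and, beside those given above, changed no other call. Centring lost or turned 20, the compared arrays alone 17, leaving out female array 3 16 and leaving out female array 2 1. The number of called entries ranged from 5565 to 7117 when 1 array was left out. Entries measured in 1 sex numbered 227, with 124 in males and 103 in females. After centring they numbered 840, with 94 in males and 746 in females. Centring shifts values at the floor too: CG15239, at the floor on every control array, changed to -0.75. The part of this shift in the rise was not tested. With the filter at the 60th percentile, which leaves fewer genes, such entries numbered 125. The 17 entries whose sex difference differed from the founders' became 11 with the compared arrays alone and 8 to 19 when 1 array was left out. The 34 that differed from the F3 controls became 60 with the replicate block, 168 with the compared arrays alone, 10 with batches numbered separately or with quantile normalisation, 20 after centring, 3 with the filter at the 60th percentile, 21 without the F3 arrays numbered 3, and 5 to 150 when 1 F1 control array was left out; the cause was not tested. Signal over background limits the Y-linked, receptor and spermatocyte lists, whose median levels per array lay between 2.23 and 4.58. The alternative of promoter windows was not run.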
